A study of Mus musculus with 6 samples.

Results

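The circadian clock genes were followed in articular cartilage of young and aged mice. The 10 genes Arntl, Clock, Per1, Per2, Per3, Cry1, Cry2, Nr1d1, Nr1d2 and Dbp were taken by name from the 33971 genes of the expression table, and all 10 were found. The groups were wild-type mice aged 2 months and wild-type mice aged 18 months, with 3 libraries of each age. The study's methods describe male mice kept in alternating light and dark. They give neither the time of day at which cartilage was taken nor how many mice made up a library. Polyadenylated RNA was sequenced, and the libraries held 48171507 to 59085179 counts. Where p-values are given they set the difference between the age groups against the spread between these libraries, and intervals are 95% intervals of the fit.

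The mammalian clock is a transcription loop that runs in nearly every cell, chondrocytes included. BMAL1, encoded by Arntl, pairs with CLOCK and switches on genes that carry an E-box. Among those genes are the PER and CRY proteins, which return to the nucleus and silence the pair, and the REV-ERB receptors encoded by Nr1d1 and Nr1d2, which compete with ROR receptors and repress Arntl. DBP is an output factor that binds D-boxes and passes the rhythm on to further genes. In cartilage the clock is known to govern genes of matrix turnover, and its transcripts rise and fall over the day in opposite phases, with Arntl high when Dbp and Nr1d1 are low.

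Several facts about the libraries bear on every value that follows. The 16 chondrocyte markers had a summed level of 14956 to 18567 FPKM (fragments scaled by transcript length and library size) at 2 months and 362 to 1727 FPKM at 18 months, and all 16 were called lower by the rule given with the results. Prg4, which encodes lubricin, was the most abundant of them. The 14 neutrophil markers, led by S100a9, summed to 9.02, 3732 and 58.4 FPKM in 2-month replicates 1, 2 and 3 and to 42997 to 47868 FPKM in the aged libraries, and 0 of 14 were called. The 10 erythroid markers, led by Hbb-bs, summed to 288, 7386 and 788 FPKM in the young libraries and to 29962 to 39741 FPKM in the aged, with 3 of 10 called higher. Of the other lists, skeletal muscle markers summed to 50.4 to 90.9 FPKM in young and 4.63 to 6.05 FPKM in aged libraries (6 of 8 tested lower), and fibroblast and tendon markers to 807 to 1115 and 53.2 to 128 FPKM (4 of 6 lower, 1 higher). T and NK lymphocyte markers summed to 0.297 to 11.5 and 101 to 119 FPKM (5 of 9 higher). Osteoblast markers had 3 of 7 lower, monocyte markers 2 of 9 higher, adipocyte and endothelial markers 1 higher each, and B lymphocyte markers 0 of 8 called. B lymphocyte markers summed to 1.74, 98.2 and 2.48 FPKM in the young libraries and 68.0 to 83.0 FPKM in the aged. Endothelial markers summed to 1.85, 38.0 and 5.85 FPKM and to 31.3 to 33.9 FPKM. For both lists 2-month replicate 2 was above all aged libraries. Beside these counts of called markers, 36.3% of all genes tested were called, 21.3% lower and 14.9% higher. No chondrocyte, neutrophil or erythroid marker was at 0 throughout an age. In bulk tissue, fewer cells of a type cannot be told apart from less RNA per cell. Xist, made from the inactive X chromosome, was at 89.5 to 101 FPKM at 2 months and at most 0.0261 FPKM at 18 months, while the Y-linked Ddx3y was at no more than 0.0342 and at 13.3 to 14.5 FPKM, so that the pattern of the sex chromosomes divided with age although the methods name males. Age and sex cannot be told apart. Their part, and that of the cells these markers stand for, in the clock gene results was not tested.

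Promoter windows, from 250 bases before to 50 after an annotated start site, were found in RefSeq (GRCm38.p6) for 9 of the 10 genes. Per2 had no entry. Both strands were searched for the E-box CACGTG, its variant CACGTT, the D-box TTATGNAA, the core of the ROR element TNGGTCA, which REV-ERB receptors bind as well, and the cyclic AMP response element TGACGTCA. No match overlapped another. At least 1 match lay in the windows of 6 genes. Their 250 bases upstream of a start site are shown, 5′ to 3′ on the strand of the gene. They hold matches to the kinds of element through which the loop is known to run. Matches are in capitals.
Arntl: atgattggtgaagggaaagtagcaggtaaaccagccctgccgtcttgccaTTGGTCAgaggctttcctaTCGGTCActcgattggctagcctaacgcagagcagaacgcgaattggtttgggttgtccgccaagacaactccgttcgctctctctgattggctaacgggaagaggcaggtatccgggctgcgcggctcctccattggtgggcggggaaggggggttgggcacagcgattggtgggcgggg
Per1: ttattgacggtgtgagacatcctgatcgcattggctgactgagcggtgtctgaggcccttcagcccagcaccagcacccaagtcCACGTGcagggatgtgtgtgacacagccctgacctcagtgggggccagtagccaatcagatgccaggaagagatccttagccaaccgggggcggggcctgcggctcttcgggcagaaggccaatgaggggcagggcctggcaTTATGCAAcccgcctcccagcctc
Per3: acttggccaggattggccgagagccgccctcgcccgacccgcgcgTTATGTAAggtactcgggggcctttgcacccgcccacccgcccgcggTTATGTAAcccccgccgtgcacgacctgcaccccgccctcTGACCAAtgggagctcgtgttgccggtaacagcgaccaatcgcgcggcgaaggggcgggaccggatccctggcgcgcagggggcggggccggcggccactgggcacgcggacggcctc
Cry1: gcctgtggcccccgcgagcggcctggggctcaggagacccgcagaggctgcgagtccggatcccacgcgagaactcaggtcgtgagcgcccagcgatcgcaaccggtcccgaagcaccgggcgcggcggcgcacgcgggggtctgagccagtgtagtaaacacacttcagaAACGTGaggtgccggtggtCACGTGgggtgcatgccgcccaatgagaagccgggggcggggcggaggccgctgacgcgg
Cry2: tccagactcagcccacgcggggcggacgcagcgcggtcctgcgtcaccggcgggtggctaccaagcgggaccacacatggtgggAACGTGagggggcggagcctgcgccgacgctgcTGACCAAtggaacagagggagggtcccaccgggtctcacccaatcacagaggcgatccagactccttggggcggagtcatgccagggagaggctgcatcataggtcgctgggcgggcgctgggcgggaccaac
Nr1d1: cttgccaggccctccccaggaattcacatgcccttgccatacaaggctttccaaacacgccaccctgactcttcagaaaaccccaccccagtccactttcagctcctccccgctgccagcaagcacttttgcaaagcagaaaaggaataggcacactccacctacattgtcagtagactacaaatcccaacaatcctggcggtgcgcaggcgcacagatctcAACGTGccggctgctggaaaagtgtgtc

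The Arntl stretch (chr7:113207215-113207464, plus strand) held a pair of ROR element cores, beginning 200 and 181 bases before the start site. The window of another annotated Arntl start site, not shown, held the same pair. It also held a further core, TAGGTCA, beginning at base 31 after that start. The core was present in 11.0% of the 32851 promoter windows of the table. The E-box occurred in Per1 (chr11:69098699-69098948, plus strand) and Cry1 (chr10:85185055-85185304, minus strand), 166 and 60 bases before the start, against 7.15% of all windows. The variant CACGTT was found in Cry1, in Cry2 (chr2:92434070-92434319, minus strand) and in Nr1d1 (chr11:98775378-98775627, minus strand), against 4.68% of all windows. Per3 (chr4:151044666-151044915, minus strand) carried a pair of D-boxes and Per1 a single D-box 24 bases before the start, against 3.38% of all windows. The window of another annotated Per1 start site, not shown, held none of the elements searched for. Cry2 and Per3 also held a ROR element core on the opposite strand. The windows of Clock, Nr1d2 and Dbp held none of these letters, and the cyclic AMP response element was in no window of a member. Such matches are descriptions of the reference sequence and do not show that a factor was bound.

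Most clock transcripts were scarcer in aged cartilage, and Cry1 was more abundant. Of the 10 genes, 7 were called lower (Arntl, Clock, Per3, Cry2, Nr1d1, Nr1d2 and Dbp), 1 was called higher (Cry1) and 2 were not called (Per1 and Per2). A gene was called when its adjusted p from edgeR's quasi-likelihood test was below 0.05 and its log2 fold change of 18-month against 2-month cartilage lay above 1 or below −1. Over all 20397 genes tested, 36.3% were called by this rule, 21.3% lower and 14.9% higher. The median log2 fold change of the 10 genes was −2.00, and that of all genes tested was −0.02. An adjusted p below 0.05 at any fold change was found for 8 members and for 51.3% of all genes tested. In 8 members the ages did not overlap in CPM (counts scaled to a common library size), against 68.6% of all genes tested. All aged libraries were lower for 7 members, against 34.6% of all genes, and higher for 1, against 33.9%. Fold changes reached furthest for Dbp and Nr1d1, which stood at percentiles 2.83 and 3.50 among the log2 fold changes of all genes tested.

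**Figure D1:**
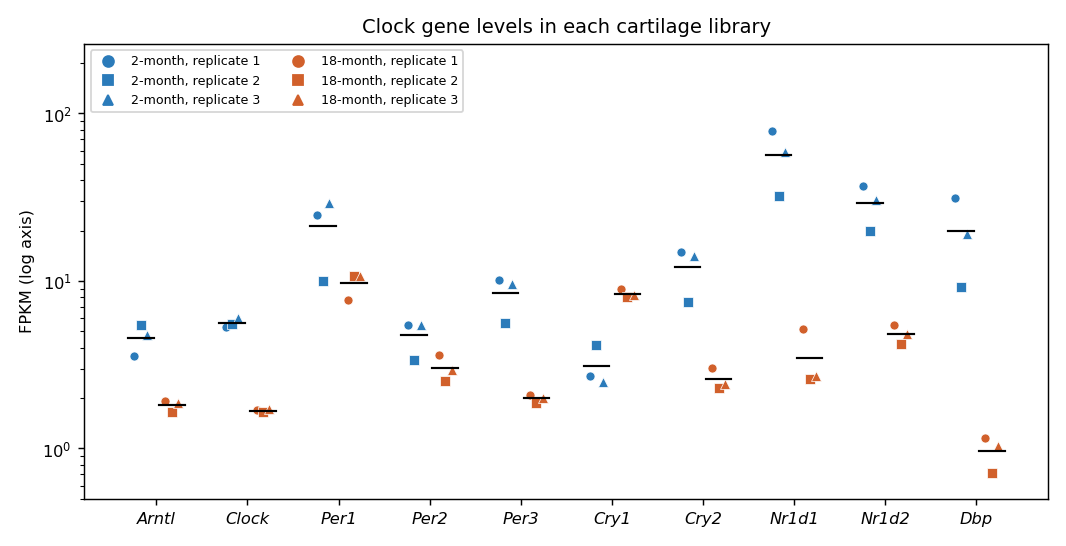
FPKM of the 10 clock genes in each library on a log axis, with blue for 2 months, orange for 18 months, a marker shape for each replicate and a black line at the mean of an age. Cry1 is the gene with all aged libraries above all young ones, and Per1 and Per2 are the genes whose ages overlap.

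The activators of the loop were both lower. Arntl (ENSMUSG00000055116, chr7:113207465-113314126, plus strand) encodes BMAL1, without which the loop does not run. Its level was 3.56, 5.49 and 4.74 FPKM in 2-month replicates 1, 2 and 3 and 1.93, 1.64 and 1.87 FPKM in 18-month replicates 1, 2 and 3. All aged libraries were below all young ones, and the highest young value was that of replicate 2. The means were 4.60 ± 0.974 and 1.81 ± 0.150 FPKM (SD, n = 3), with a log2 fold change of −1.41 (standard error 0.16, edgeR adjusted p = 0.00202). Its interval ran from −1.82 to −1.01. On log2(FPKM + 1) in limma, which understates the change of low genes, the difference was −0.98 and so was just inside the limit on the fold change.

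Clock (ENSMUSG00000029238, chr5:76209868-76304792, minus strand), the partner of BMAL1, had the smallest spread of the 10 genes. It was at 5.30, 5.51 and 6.01 FPKM in the young libraries and at 1.70, 1.65 and 1.71 FPKM in the aged ones. The fold change of 3.51 was thus many times the spread within an age. On the log2 scale it was −1.81 (standard error 0.11, edgeR adjusted p = 0.000749). The pseudogene Ube2n-ps1 lies within Clock on the same strand, at 3.11 to 3.78 FPKM in young and 3.02 to 4.45 FPKM in aged libraries. Npas2 and Arntl2, paralogs that can stand in for CLOCK and BMAL1, fell as well. Npas2 went from 2.03, 2.55 and 2.73 FPKM to 0.911, 0.765 and 0.937 FPKM, a log2 fold change of −1.56 (edgeR adjusted p = 0.00234). Arntl2 was weakly expressed, at 0.797 to 1.001 FPKM in young and 0.0917 to 0.438 FPKM in aged cartilage, with a log2 fold change of −2.06 (edgeR adjusted p = 0.0289). Its call was lost without 2-month replicate 1 (edgeR adjusted p = 0.0668), 2-month replicate 3 (0.0783), 18-month replicate 2 (0.0554) or 18-month replicate 3 (0.0976).

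The ratio of Clock to Arntl, which compares FPKM values within a library, was 1.49, 1.003 and 1.27 in young and 0.881, 1.001 and 0.915 in aged cartilage. The ratios of 2-month replicate 2 and 18-month replicate 2 were thus nearly equal.

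The PER proteins form the arm that silences BMAL1 and CLOCK each day, and their 3 genes did not move alike. Per1 (ENSMUSG00000020893, chr11:69095217-69109960, plus strand), whose promoter window shown above holds an E-box, is induced rapidly by light and hormones as well as by the clock. It had 24.8, 10.01 and 29.2 FPKM in the young libraries and 7.74, 10.8 and 10.7 FPKM in the aged. The low value of 2-month replicate 2 lay within the aged range, so the ages overlapped. The log2 fold change was −1.23 (interval −2.32 to −0.14) and Per1 did not pass the test (edgeR adjusted p = 0.0615). Without 2-month replicate 2 it was −1.56 and passed (edgeR adjusted p = 0.00150). DESeq2 also called it with all libraries (−1.15, adjusted p = 0.00662), as did edgeR when genes whose mean FPKM was below 1 were left out (−1.33, adjusted p = 0.0487).

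Per2 (ENSMUSG00000055866, chr1:91415982-91459324, minus strand), a repressor whose loss disturbs daily rhythms in mice, had the smallest difference of the 10 genes. Its levels were 5.44, 3.40 and 5.46 FPKM at 2 months and 3.61, 2.55 and 2.95 FPKM at 18 months. Here too 2-month replicate 2 lay within the range of the aged libraries. The log2 fold change was −0.75 (interval −1.39 to −0.10, edgeR adjusted p = 0.0562), which was past neither limit. Without 2-month replicate 2 it was −0.95, still inside the limit on the fold change.

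Per3 (ENSMUSG00000028957, chr4:151003652-151044665, minus strand), the family member least needed for the rhythm, fell clearly. It had 10.1, 5.62 and 9.62 FPKM in young cartilage and 2.09, 1.86 and 2.01 FPKM in aged cartilage. The ages were well apart, with means of 8.44 ± 2.45 and 1.99 ± 0.116 FPKM (SD, n = 3). The log2 fold change was −2.18 (standard error 0.28, edgeR adjusted p = 0.00253). Per3 lies whole within the interval of Camta1 on the same strand in the deposited table, so that reads could have been divided between them. Camta1 itself was at 0.969 to 1.29 FPKM at 2 months and 0.673 to 0.901 FPKM at 18 months. Per1 was 1.78 to 3.03 times as abundant as Per3 per length in the young libraries and 3.70 to 5.78 times in the aged.

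The cryptochromes are the stronger repressors of the loop, and Cry1 and Cry2 moved in opposite directions. Cry1 (ENSMUSG00000020038, chr10:85131700-85185064, minus strand), which carries both an E-box and its variant in the promoter window, delays the clock and is the late repressor. Its level was 2.72, 4.13 and 2.49 FPKM in the young libraries and 8.90, 7.97 and 8.29 FPKM in the aged ones. The lowest aged value was above the highest young value, which came from replicate 2. Cry1 rose by 1.36 on the log2 scale (standard error 0.18, edgeR adjusted p = 0.00290), a 2.57-fold change. It was the only one of the 10 genes above 0, and it was called higher under all 16 alternative settings that were run.

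Cry2 (ENSMUSG00000068742, chr2:92403646-92434043, minus strand), which acts earlier in the cycle, had 14.8, 7.52 and 14.1 FPKM at 2 months and 3.03, 2.31 and 2.41 FPKM at 18 months. All aged values lay below all young ones. The fall was 5.03-fold, or −2.33 on the log2 scale (standard error 0.32, edgeR adjusted p = 0.00315). The ratio of Cry1 to Cry2 per length was accordingly 0.183, 0.549 and 0.177 in young cartilage and 2.94, 3.45 and 3.43 in aged cartilage. Cry2 was thus the more abundant cryptochrome in every young library and Cry1 in every aged one. The noncoding gene D930015M05Rik overlaps Cry2 on the opposite strand and was at 1.73 to 2.70 FPKM in young and 0.274 to 0.374 FPKM in aged libraries. The libraries were strand-specific, but whether the counting used it is not given in the sources used here.

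The second loop of the clock sets Arntl through REV-ERB repressors and ROR activators. Nr1d1 (ENSMUSG00000020889, chr11:98767932-98775333, minus strand) encodes REV-ERBα and was the most abundant of the 10 genes per length in each young library. It stood at 78.5, 32.2 and 58.8 FPKM at 2 months and at 5.14, 2.61 and 2.71 FPKM at 18 months. Even the lowest young library was above the highest aged library by a wide margin. The log2 fold change was −4.12 (interval −5.32 to −2.93, edgeR adjusted p = 0.00208), a 17.4-fold fall. Leaving out any 1 library gave values from −4.48 to −3.79.

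Nr1d2 (ENSMUSG00000021775, chr14:18204054-18239127, minus strand) encodes REV-ERBβ, which shares the task. Its levels were 37.1, 19.9 and 30.2 FPKM in young and 5.48, 4.21 and 4.79 FPKM in aged cartilage. The ages did not overlap, and the log2 fold change was −2.69 (standard error 0.29, edgeR adjusted p = 0.00176). Nr1d1 exceeded Nr1d2 in all young libraries, by ratios of 2.12, 1.62 and 1.94 per length. In the aged libraries the order was the other way, with ratios of 0.938, 0.621 and 0.566.

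Rora, which encodes a widely expressed activator that acts through ROR elements, was lower too. It had 9.99, 6.15 and 9.84 FPKM at 2 months and 0.996, 0.728 and 0.773 FPKM at 18 months. Its log2 fold change was −3.47 (edgeR adjusted p = 0.00109). The activator Rora and the repressors Nr1d1 and Nr1d2, which act on the same element, were thus all scarcer in the aged libraries, and so was Arntl. Rorb was at no more than 0.0242 FPKM in any library and did not pass the filter on low counts.

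Dbp (ENSMUSG00000059824, chr7:45705088-45710203, plus strand), the output factor whose transcript has a large daily swing in many tissues, showed the furthest fall of the 10 genes. The young libraries had 31.4, 9.20 and 19.2 FPKM and the aged libraries 1.16, 0.711 and 1.03 FPKM. The young libraries differed more among themselves than for any other member, yet the lowest of them was well above all aged ones. The log2 fold change was −4.45 (interval −5.81 to −3.10, edgeR adjusted p = 0.00234), a 21.9-fold fall. Counts in the aged libraries were 236, 135 and 199. The last 737 bases of Dbp overlap Sphk2 on the opposite strand, and Sphk2 was nearly level, at 5.60 to 6.23 FPKM in young and 6.85 to 7.35 FPKM in aged cartilage.

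**Figure D2:**
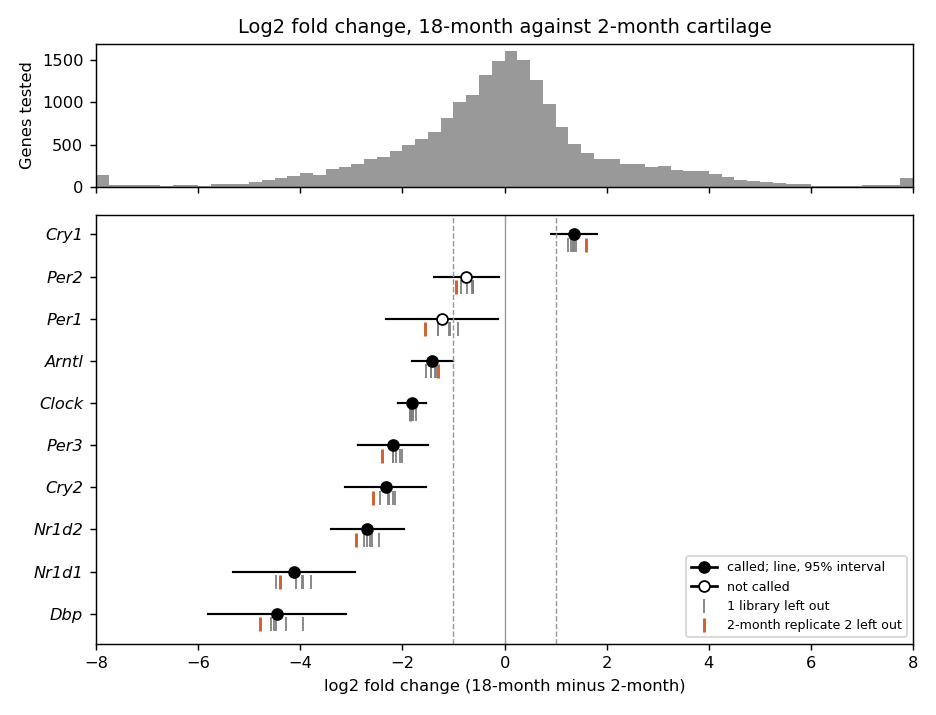
Log2 fold changes of 18-month against 2-month cartilage. The upper panel is the histogram of all 20397 genes tested, with values beyond the axis placed in the end bins, and the lower panel shows each clock gene with its 95% interval, open circles for genes not called, dashed lines at the limits of −1 and 1, and ticks for fits without 1 library; Cry1 is the member to the right of 0, and the orange tick, without 2-month replicate 2, lies at −1.56 for Per1.

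Tef and Hlf belong to the same family of PAR bZIP factors as Dbp. Tef fell from 29.3, 15.4 and 26.7 FPKM to 4.11, 2.95 and 3.22 FPKM, a log2 fold change of −2.89 (edgeR adjusted p = 0.00184). Hlf, named here after its values were seen, was scarce, with 0.428 to 0.546 FPKM in young and 0.700 to 1.04 FPKM in aged libraries. All aged libraries were above the young ones, and the log2 fold change of Hlf was 0.85 (edgeR adjusted p = 0.0339), inside the fold change limit. Without 18-month replicate 2 it was called higher, at 1.001 (edgeR adjusted p = 0.0428). NFIL3 competes with these factors for the D-box and represses from it. Nfil3 rose from 2.75, 3.67 and 3.42 FPKM to 16.0, 12.8 and 15.0 FPKM, a log2 fold change of 2.08 (standard error 0.15, edgeR adjusted p = 0.000919). Nfil3 is also expressed in leukocytes, and the summed neutrophil marker level differed between the ages as given above. Its part in the value of Nfil3 was not tested.

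Of 25 further genes of the pathway, 24 passed the filter on low counts, and 10 were called lower and 2 higher. That is 50.0% called, beside 36.3% of all genes tested, and their median log2 fold change was −0.98. Among 5 further repressors, Bhlhe40, Bhlhe41 and Ciart were lower and Nfil3 higher. Bhlhe41, which encodes DEC2 and competes for E-boxes, went from 40.5, 17.4 and 32.2 FPKM to 2.23, 0.635 and 0.540 FPKM, a log2 fold change of −4.84 (edgeR adjusted p = 0.00414), or −5.74 without 18-month replicate 1. Bhlhe40 changed less, by −1.36 (edgeR adjusted p = 0.00854). Ciart, a repressor of the BMAL1 pair, changed by −2.53 (edgeR adjusted p = 0.0118).

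The enzymes that modify PER and CRY proteins had the smallest share called of the pathway lists, 1 of 9, beside 36.3% of all genes tested. An adjusted p below 0.05 at any fold change was found for 4 of 9, beside 51.3% of all genes. Log2 fold changes were below 0 for 8 of 9, beside 50.6% of all genes. All aged libraries were lower for 6 of 9, beside 34.6% of all genes. Fbxl21, a ubiquitin ligase subunit for cryptochromes, was the gene called. It was at 0.420 to 0.686 FPKM in young and 0.0516 to 0.0928 FPKM in aged cartilage (log2 fold change −2.75, edgeR adjusted p = 0.00376). For the kinase genes Csnk1a1 and Csnk1d the intervals were narrow, from −0.46 to 0.13 and from −0.31 to 0.14. These intervals hold for the scaling of the edgeR fit. With FPKM rescaled to TPM, an alternative chosen after seeing the data, Csnk1a1 was at −0.52 (limma adjusted p = 0.00549). Csnk1d was at −0.44 (limma adjusted p = 0.0211), and both lay outside the intervals. The median of all genes tested was −0.33 in that setting.

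Of the 4 outputs that cycle in many organs, 2 were called, beside 36.3% of all genes tested. Tspan4 was called lower and Wee1 higher. Wee1, a kinase that holds cells before mitosis and is a direct target of the clock, went from 2.04, 4.08 and 2.22 FPKM to 8.98, 10.6 and 9.25 FPKM (log2 fold change 1.73, edgeR adjusted p = 0.00411). The 8 proliferation markers, led by Pcna, had summed levels of 20.7 to 123 FPKM at 2 months and 413 to 434 FPKM at 18 months, with 5 of 8 called higher, and their part in the value of Wee1 was not tested. Tspan4 changed by −1.10 (edgeR adjusted p = 0.00459) and by −0.92 without 2-month replicate 1, where it was not called. Tsc22d3, a glucocorticoid-induced gene, had 74.3, 37.1 and 111 FPKM at 2 months and 35.1, 37.6 and 36.8 FPKM at 18 months. It resembled Per1 in that 2-month replicate 2 lay among the aged values, and it did not pass the test (log2 fold change −1.12, edgeR adjusted p = 0.0675). Without that library it did (−1.44, edgeR adjusted p = 0.00186). Nampt, the enzyme of NAD salvage, did not pass either (log2 fold change −0.53, edgeR adjusted p = 0.265).

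**Figure D3:**
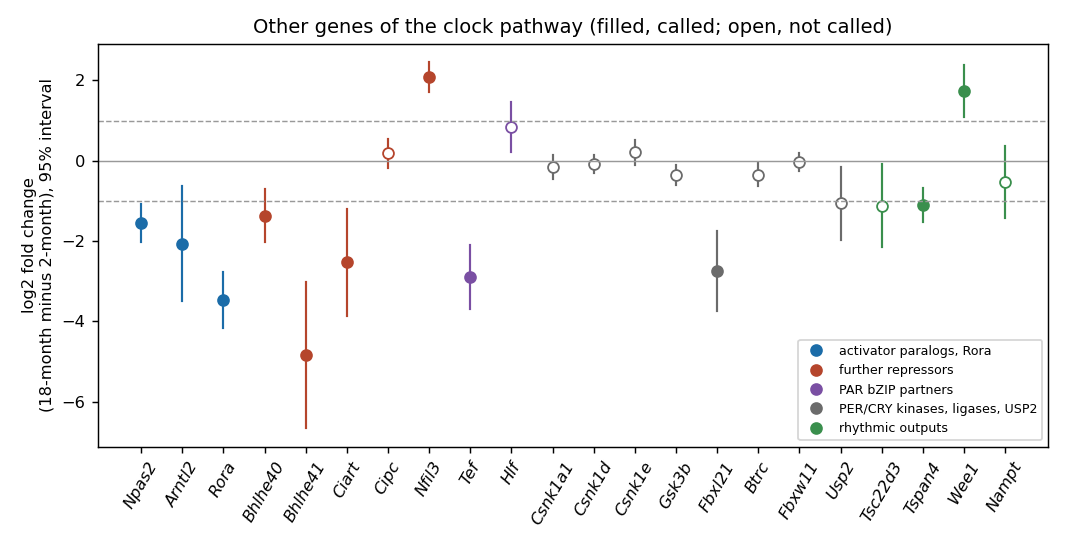
Log2 fold change and 95% interval of further clock pathway genes tested, coloured by role, with filled circles for called genes and dashed lines at −1 and 1. Npas2, Arntl2 and Rora lie below −1, Csnk1a1 and Csnk1d lie near 0, and Nfil3 and Wee1 are the called genes above 1.

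The young libraries differed from each other in a patterned way. In 2-month replicate 2, Per1, Per2, Per3, Cry2, Nr1d1, Nr1d2 and Dbp were all below the other young libraries, and Cry1 and Arntl were above them. Against the mean of replicates 1 and 3, its log2 CPM were lower by values from −0.82 for Per2 to −1.56 for Per1, with −1.55 for Dbp and −1.21 for Nr1d1. They were higher by 0.52 for Cry1 and by 0.28 for Arntl. Clock was nearly level, at −0.17. The signs of these differences, for 9 of the 10 genes, followed the direction in which the aged libraries differed. Arntl was the exception, being low in aged cartilage and highest in replicate 2, though above the nearest young library by only 0.07. Clock, among the 9, differed from its nearest young library by only −0.08. The share of all genes tested that followed the aged direction in this way was not computed, so this count does not set the clock genes apart. The same library had a neutrophil marker sum of 3732 FPKM against 9.02 and 58.4 FPKM in the other young libraries. Its chondrocyte marker sum was 14956 against 16522 and 18567 FPKM, within which Prg4 was at 2575 against 6097 and 6475 FPKM. By share of counts, the chondrocyte markers made up 8.31% against 7.54% and 8.87%. The osteoblast marker sum was 4247 against 1804 and 1965 FPKM. Whether the marker cells had a part in the clock gene values of this library was not tested.

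The aged libraries lay closer together. The median SD of the 10 genes was 0.17 on the log2 scale at 18 months and 0.54 at 2 months, beside 0.22 and 0.34 for all genes tested. At 2 months the SD was highest for Dbp (0.96) and Per1 (0.91) and lowest for Clock (0.14). At 18 months it was highest for Nr1d1 (0.52), where replicate 1 was above the others, and lowest for Clock (0.04). That replicate also had the highest chondrocyte marker sum of the aged libraries, 1727 against 367 and 362 FPKM. Within that sum Prg4 was at 1389 against 272 and 266 FPKM. The fibroblast and tendon sum of the same replicate was 128 against 53.2 and 53.8 FPKM. Without 18-month replicate 1, Nr1d1 was at −4.48 on the log2 scale, Bhlhe41 at −5.74 and Arntl2 at −2.83. The part of the cells these markers stand for was not tested. Aged replicates 2 and 3 differed least of all library pairs of the same age, with a median chi-square per gene 6.32 times that of counting noise, against 13.1 to 48.8 times in the other pairs, and so all libraries were kept as separate samples.

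**Figure D4:**
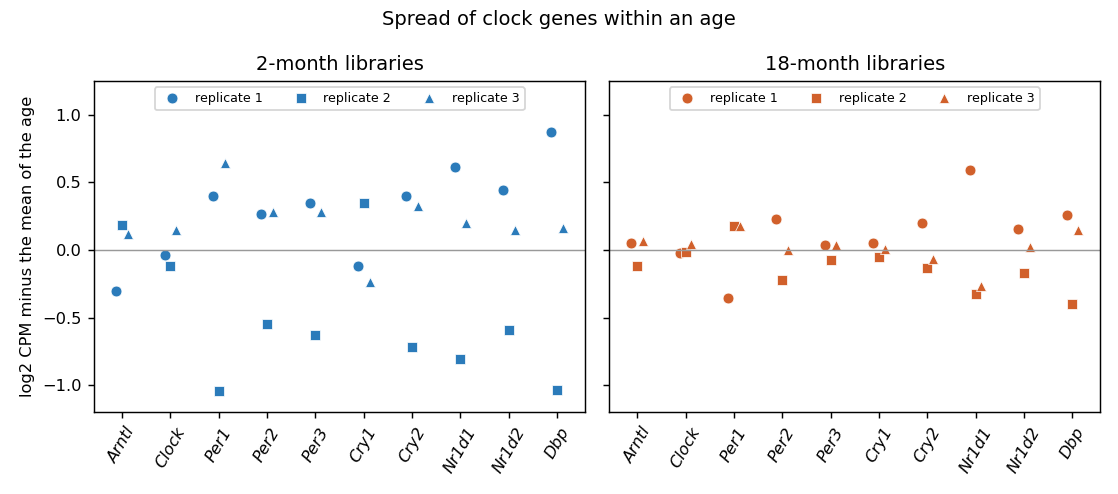
Log2 CPM of each clock gene minus the mean of its age, for the young libraries on the left and the aged ones on the right, with a marker shape for each replicate. Replicate 2 of the young libraries lies lowest for Per1, Per2, Per3, Cry2, Nr1d1, Nr1d2 and Dbp and highest for Cry1, and the aged libraries lie closer to 0.

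Ratios between clock genes of the same library do not depend on how libraries are scaled. Counts of Arntl were therefore set against those of each other member, with 0.5 added to every count. The log2 ratio of Arntl to Dbp was −1.81, 0.59 and −0.69 in the young libraries and 2.04, 2.52 and 2.17 in the aged ones. Arntl thus had fewer counts than Dbp in young replicates 1 and 3 and more in young replicate 2 and in all aged libraries. The ratio to Nr1d1 went the same way, from −3.17, −1.26 and −2.34 to −0.13, 0.62 and 0.75. The ratio to Cry1 went the opposite way, from 1.56, 1.58 and 2.09 to −1.04, −1.10 and −0.98.

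The difference in mean log2 ratio, aged minus young, was 2.88 for Dbp, 2.67 for Nr1d1, 1.23 for Nr1d2 and 0.41 for Clock, and −2.78 for Cry1 and −0.69 for Per2. For each of these 6 ratios the ages did not overlap, by narrow margins for Per2 (−0.250 in the lowest young and −0.268 in the highest aged library) and Clock (−0.872 in the highest young and −0.868 in the lowest aged library), and the exact two-sided permutation test gave p = 0.1, the smallest that 3 libraries against 3 allow (0.15 after adjustment over the 9 ratios). The ratios to Per1 (difference −0.32, exact permutation p = 0.9), Per3 (0.71, 0.4) and Cry2 (0.86, 0.3) overlapped between the ages. For Per3 and Cry2 young replicate 2 was the only young library within or above the aged values. Over all 20396 other genes tested, 74.7% of the ratios of Arntl to a gene did not overlap, so that 6 of 9 was no more than the background. Without young replicate 2, 8 of the 9 ratios did not overlap, against 81.2% of all.

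**Figure D5:**
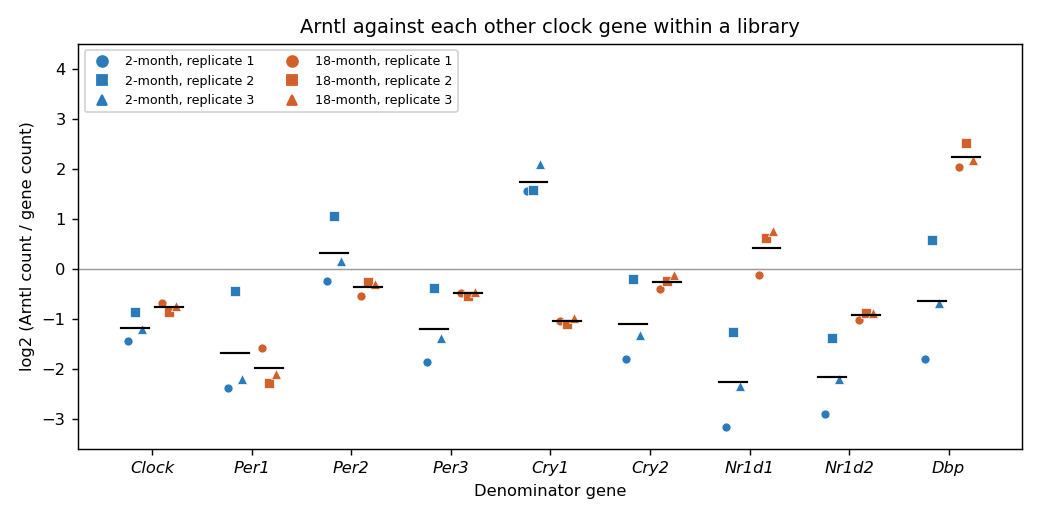
Log2 ratio of the Arntl count to the count of each other clock gene within a library, with blue for 2 months, orange for 18 months and a black line at the mean of an age. Aged libraries lie above young ones for Dbp, Nr1d1, Nr1d2 and Clock and below them for Cry1 and Per2.

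Genes with the most similar profile were found by the root mean square distance between log2 CPM over the 6 libraries, each gene centred on its mean, among all genes tested that are not members. For Arntl these were Islr (distance 0.06), Slc6a8 (0.07) and Lrp12 (0.09). For Nr1d1 they were Gm15270 (0.13), Bnip3 (0.15) and Atf5 (0.16), and for Dbp they were Bnip3 (0.17), Arhgef28 (0.18) and Atp9a (0.18). Bnip3, a mitophagy receptor, had 396, 125 and 274 FPKM in young and 19.8, 11.8 and 13.1 FPKM in aged cartilage. The order of the young libraries was that of Dbp and Nr1d1, which the choice by similar profile favours. Among the members themselves, the nearest member of Per3 was Cry2 (0.12), that of Nr1d2 was Cry2 (0.21), that of Arntl was Clock (0.27) and that of Nr1d1 was Dbp (0.28). Cry1 was the farthest from any other member, at 1.14 from Per2.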

How the data were processed

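RNA of articular cartilage from 3 libraries at 2 months and 3 at 18 months was analysed, as grouped by the sample titles. The authors deposited a whole-number count per gene and library without normalization, and an FPKM value scaled by transcript length and library size. The submitters' processing notes name cutadapt 1.9, HISAT2 2.0.4, UMI-tools, StringTie 1.3.4d, DESeq2 and edgeR. The genome build is not given in the sources used here, but all 10 clock genes have the coordinates of GENCODE M21 (GRCm38). All columns with values per library were used.

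Counts were filtered with filterByExpr, normalized by TMM and tested in R 4.3.3 with edgeR 4.0.16 by the quasi-likelihood test, adjusted by the Benjamini-Hochberg method over 20397 genes. Standard errors were derived from the fold change and its F statistic. At 48171507 to 59085179 counts per library, counting error was small beside the spread between libraries for the median gene, as the chi-square values above show. It was not compared gene by gene. Counts in 18-month replicates 1, 2 and 3 were only 31, 29 and 17 for Fbxl21 and 170, 35 and 63 for Arntl2. Alternatives used DESeq2 1.42.0, limma 3.58.1 on log2(FPKM + 0.1) and log2(FPKM + 1), other scalings and filters, a replicate block and leaving out each library. The tests were checked on simulated data. The simulation gave all genes the same relative spread, few changed genes and no library that stood apart, unlike these data. Figures were drawn with matplotlib 3.10.9.

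The clock genes and lists were chosen with earlier results of these data known. Named genes are the members, called genes of the pathway list with its 5 most abundant uncalled ones, the 3 nearest profiles of Arntl, Nr1d1 and Dbp, and the most abundant marker of each list. The 14 neutrophil, 10 erythroid, 16 chondrocyte and 8 proliferation markers are described with the results. Ratios between paralogs or partners and overlapping genes were chosen after values were seen and carry no test. Some genes of the pathway list are counted but not reported here by name. Protein sequences were not analysed here.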

Additional observations from a re-analysis of the deposited data

How the results depend on the processing

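The 10 clock genes were recomputed under 16 alternatives. None changed sign in any of them, and 154 of 160 calls were the same. Per2, uncalled, had an adjusted p below 0.05 without 2-month replicate 2 (0.00279), with DESeq2 (0.0202), with the replicate block (0.0447) and with genes of mean FPKM below 1 left out (0.0361). The number called ran from 7 with log2(FPKM + 1) to 10 with FPKM rescaled to TPM, an alternative chosen after seeing the data, in which the median of all genes moved to −0.33. With TPM, Per2 was called at −1.06 and Per1 at −1.44. Leaving out 1 library gave 8 to 9 called members and 10 to 15 called pathway genes, with the highest of both without 2-month replicate 2. In the fit with the replicate block 8 members and 11 pathway genes were called, and 6032 genes overall against 7401. The pairing had no support, since correlations between same-numbered libraries of both ages were 0.02, 0.04 and −0.01. Ciart was the gene lost under the block (edgeR adjusted p = 0.0550).

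Pathway genes called lower were 6 with log2(FPKM + 1), against 10. Of the pathway genes, Fbxw11, at −0.038, changed sign with size factors (0.0144), total counts (0.0362), DESeq2 (0.0403), log2(FPKM + 0.1) (0.0411) and log2(FPKM + 1) (0.0392), and with TPM Cipc (−0.16) and Csnk1e (−0.14) did. These 3 were named after their values were seen. Of all genes called, 41.2% were higher in the edgeR fit, 50.6% with log2(FPKM + 0.1), 57.8% with log2(FPKM + 1), 34.8% with TPM and 52.2% without 2-month replicate 2. Ratios of Arntl did not overlap for 6 to 8 of 9 members when 1 library was left out.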
